A study of Arabidopsis thaliana with 36 samples.

Results

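The 10 genes described here belong to photosynthetic carbon fixation and were chosen by role, as named loci and with no threshold on a measured value: 10 of the 28775 loci counted in each library. RBCS1A (AT1G67090), RBCS1B (AT5G38430), RBCS2B (AT5G38420) and RBCS3B (AT5G38410) encode the small subunit of Rubisco, the enzyme that fixes CO2. RCA (AT2G39730) encodes Rubisco activase. PRK (AT1G32060), GAPA (AT3G26650), GAPB (AT1G42970), SBPASE (AT3G55800) and HCEF1 (AT3G54050) encode enzymes of the Calvin cycle. All 10 had a row in all 8 count tables and passed the low-count filter of each comparison. The libraries came from plants labelled quintuple mutant and triple mutant of the S1 group of bZIP transcription factors and from Arabidopsis thaliana wild type of the Col-0 accession. Each genotype was sampled as flowers, rosette buds, sink and source leaves, with 3 libraries per genotype and tissue and 36 in all. Per the labels, all plants stood in long days of 16 h light and 8 h dark at 60% humidity and 100 µmol of light per square metre and second. Which S1 genes carry mutations, and which alleles, is not given by the labels, and the count per locus offers no check of a point mutation or a small deletion, so the genotypes are called here as the libraries are labelled.

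In the Calvin cycle, Rubisco joins CO2 to ribulose bisphosphate, and the product is reduced to sugar phosphates, most of which are used to rebuild ribulose bisphosphate. The small subunit of Rubisco is encoded by a nuclear gene family, and its large subunit by the chloroplast genome. The enzymes of the cycle belong to the most abundant proteins of green leaves, and their genes are known to respond to light, sugars and the circadian clock. S1 bZIP proteins bind DNA elements with an ACGT core and, in the promoter of a proline dehydrogenase gene, an ACTCAT element, and sucrose represses the translation of their messages.

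Library totals lay between 18158887 and 25124369 counts. CPM, the count of a gene relative to the library total, scaled by the TMM method over all 36 libraries, is the unit of all levels, and n is 3 in every group. The 5 S1 bZIP genes were checked first. In flowers, bZIP11 (GBF6 in the RefSeq table) had 54.9, 31.6 and 18.1 CPM in quintuple libraries, 113, 92.9 and 120 CPM in triple libraries and 202, 181 and 185 CPM in wild-type libraries. bZIP1 stood at 31.2, 62.2 and 29.4 CPM in quintuple flowers, against 6.40, 5.54 and 5.50 CPM in wild-type flowers. Neither triple leaves nor buds of either mutant had a call among the 5 S1 genes, whereas bZIP2 was called lower in quintuple sink leaves (log2 fold -0.73) and quintuple source leaves (-0.91), where bZIP53 was called higher (0.70). Markers fitted the flower and bud labels. The summed CPM of 5 flower genes was 3785 to 3969 in wild-type flowers and 1.02 to 2.69 in wild-type sink leaves. BRC1, a repressor of bud outgrowth, had 20.8 to 24.8 CPM in wild-type buds and at most 0.42 CPM in wild-type leaves. The 5 bud and meristem genes summed to 57.6 to 64.8 CPM in wild-type flowers and 67.8 to 87.4 CPM in wild-type buds. Markers did not separate sink from source leaves, which are named by their labels. The 3 source leaf markers summed to 570 to 893 CPM in wild-type sink leaves and 654 to 769 CPM in wild-type source leaves. The bud meristem marker CLV3 was at or near 0 in all tissues.

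The 4 small subunit genes stand on chromosomes 1 and 5. RBCS1A lies on chromosome 1 (chr1:25048158-25049667, minus strand), and RBCS3B, RBCS2B and RBCS1B form a tandem array on the minus strand of chromosome 5, which spans 8333 bases (chr5:15376988-15385320; RefSeq, TAIR10.1). A stretch of their coding sequence, coding bases 20 to 79, is shown because it bears on how far reads can tell the copies apart; capitals mark the 16 positions at which the copies are not all the same.
RBCS1A: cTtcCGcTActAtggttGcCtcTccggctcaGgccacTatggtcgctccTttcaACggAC
RBCS1B: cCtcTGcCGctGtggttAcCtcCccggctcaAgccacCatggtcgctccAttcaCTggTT
RBCS2B: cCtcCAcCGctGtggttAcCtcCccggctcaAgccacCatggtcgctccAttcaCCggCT
RBCS3B: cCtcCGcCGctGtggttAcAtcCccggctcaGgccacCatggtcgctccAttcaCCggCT
RBCS1A shared between 90.4% and 90.6% of its coding bases with the other copies, and the 3 copies on chromosome 5 shared between 96.7% and 97.3% with each other. Of all stretches of 75 bases in a transcript, 100% were found in no other copy for RBCS1A, 79% for RBCS1B, 95% for RBCS2B and 85% for RBCS3B. The division of counts among the chromosome 5 copies is therefore less certain than the level of RBCS1A or the sum of the 4.

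Promoter sequence is shown for the same 4 genes because the genes differ in their share of the summed counts. Each line is 120 bases of the coding strand (minus strand of TAIR10.1), with capitals for CACGTG (the G-box), GATAAG (the I-box, an element of light-regulated promoters) and ACTCAT on either strand.
RBCS1A: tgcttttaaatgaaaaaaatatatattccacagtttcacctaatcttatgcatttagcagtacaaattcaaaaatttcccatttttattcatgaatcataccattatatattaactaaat
RBCS1B: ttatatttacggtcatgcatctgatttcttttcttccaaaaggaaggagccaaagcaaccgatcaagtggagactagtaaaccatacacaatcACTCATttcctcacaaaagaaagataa
RBCS2B: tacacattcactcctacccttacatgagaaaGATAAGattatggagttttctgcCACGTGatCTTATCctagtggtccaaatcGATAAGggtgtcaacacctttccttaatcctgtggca
RBCS3B: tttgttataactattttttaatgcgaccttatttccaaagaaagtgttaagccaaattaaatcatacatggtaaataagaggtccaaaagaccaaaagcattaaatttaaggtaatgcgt
The RBCS1A line (chr1:25049668-25049787), the RBCS1B line (chr5:15385321-15385440) and the RBCS3B line (chr5:15378643-15378762) end at the base before the annotated start, and the RBCS2B line (chr5:15382129-15382248) covers bases 177 to 58 before it. Over the 250 bases before the start and on both strands, CACGTG was found for RBCS2B, PRK and HCEF1, 3 of the 10 genes, against 6.49% of 27443 promoters. GATAAG was found for RBCS2B, RCA and HCEF1, and ACTCAT for RBCS1B and GAPB, each in 12.3% of all promoters. ACGT, which also lies within every CACGTG, occurred in 4 of the 10 and in 44.1% of all. A match describes these letters and does not mark a site in use. The start used is the outer bound of the annotated gene, and the RBCS1A transcript has 1268 bases for 543 coding bases. Sequence inside the annotated gene or beyond 250 bases was not searched. A missing match, as for RBCS1A, therefore does not show that a gene lacks the element.

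In wild type the 10 genes were leaf genes, lower by several fold in flowers and buds than in sink or source leaves. RCA had 2109, 2332 and 2398 CPM in flowers, 2837, 1972 and 1665 CPM in rosette buds, 24132, 25316 and 23127 CPM in sink leaves and 20795, 25403 and 21828 CPM in source leaves. RBCS1A had 3564, 3400 and 3660 CPM in flowers, 6261, 4707 and 4044 CPM in buds, 23559, 24644 and 24073 CPM in sink leaves and 15194, 19163 and 15532 CPM in source leaves. For both genes every flower and bud library lay far below every leaf library. All 10 were called lower in flowers than in source leaves (33.5% of all tested genes were, edgeR quasi-likelihood test, adjusted p under 0.05) and lower in flowers than in sink leaves (32%). The log2 folds lay between -3.37 (RCA) and -1.96 (RBCS3B) against source leaves and between -3.44 and -2.71 against sink leaves, while the medians over all tested genes were 0.12 and 0.13. All 10 were likewise lower in buds than in source leaves (32.5% of tested genes) and than in sink leaves (31.2%), with medians of -2.67 and -2.97. In these bulk samples, fewer green cells and less RNA per green cell cannot be told apart. Together the 10 genes took 1.14% of all counts in wild-type flowers and 1.35% in wild-type buds, against 5.68% in sink leaves and 5.16% in source leaves.

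**Figure D1:**
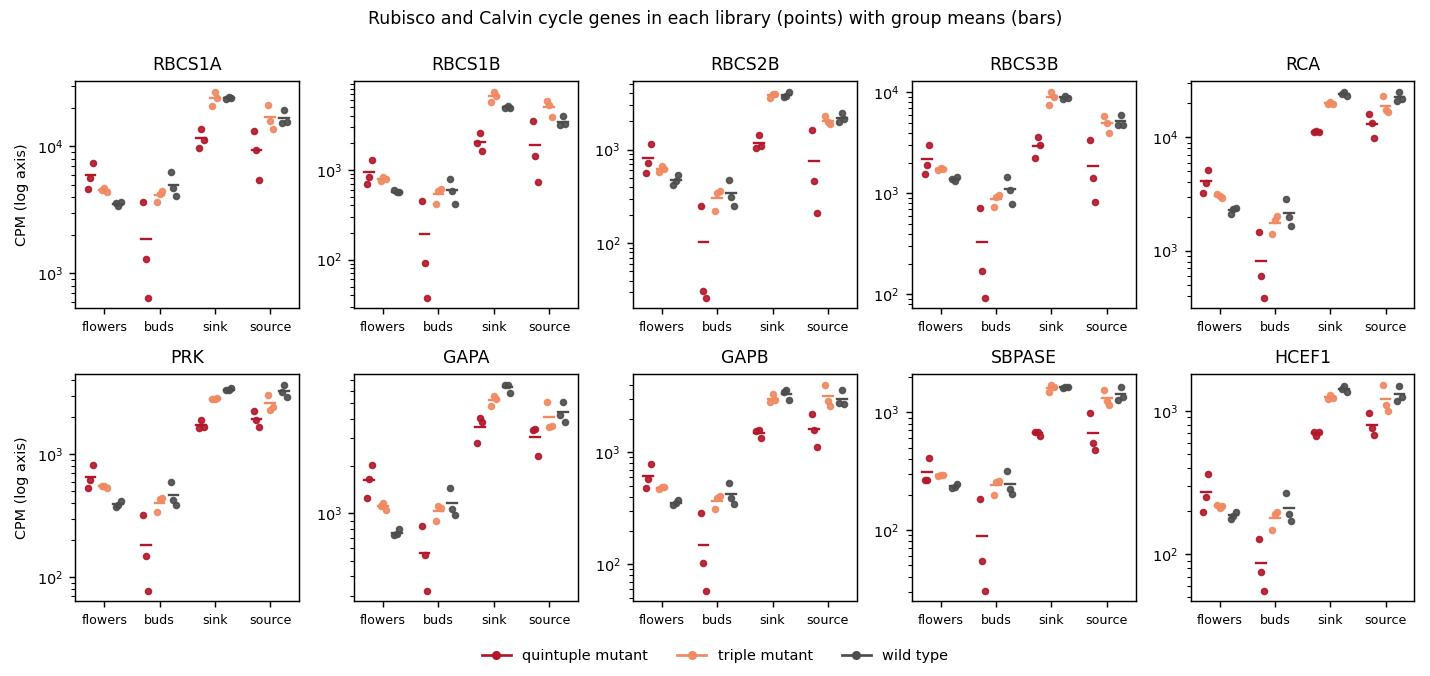
Level of each of the 10 genes in every library (CPM, log axis), by tissue and genotype; each point is 1 library and each bar a group mean. The quintuple sink leaf libraries lie below wild type for all 10 genes, and the 3 quintuple bud libraries are spread widely.

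Smaller differences were found between sink and source leaves and between flowers and buds of wild type. Sink leaves exceeded source leaves for 3 genes (13.2% of tested genes were higher): RBCS2B by a log2 fold of 0.78 ± 0.20 (SE, adjusted p = 0.014), RBCS3B by 0.76 ± 0.19 (adjusted p = 0.013) and GAPA by 0.50 ± 0.16 (adjusted p = 0.043). That count was 1 without wild-type source replicate 1 and 5 without wild-type bud replicate 1 or 3, which share the estimate of spread. Flowers were lower than buds for RBCS1A (-0.47 ± 0.18, adjusted p = 0.043) and GAPA (-0.59 ± 0.16, adjusted p = 0.0071), where 26.6% of tested genes were lower. This count of 2 became 1 without any 1 wild-type flower or sink leaf library, without bud replicate 2 or without source replicate 3.

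Per kilobase of coding sequence, so that genes of different length can be set side by side, RBCS1A led in every wild-type tissue. In sink leaves it reached 44368 ± 1000 CPM per kb (SD), followed by RCA with 16977 ± 769 and RBCS3B with 15906 ± 624, whose library ranges overlapped. RBCS1B (9089 ± 200), RBCS2B (7056 ± 529), GAPA (5286 ± 335), PRK (2827 ± 70.3), GAPB (2476 ± 270), SBPASE (1374 ± 17.3) and HCEF1 (1130 ± 55.5 CPM per kb) came next, with no overlap between neighbours. Source leaves kept this order, with overlap between RBCS2B and GAPA, PRK and GAPB, and SBPASE and HCEF1. In flowers RBCS3B (2477 ± 101) stood above RCA (1600 ± 107 CPM per kb), and no neighbours overlapped. In buds every gene after RBCS1A overlapped with the next one down. Part of this order depends on the length used. Per kilobase of transcript RBCS1A still led in every wild-type tissue. By that length RBCS3B and RCA averaged 1174 and 1153 CPM per kb in wild-type flowers. In wild-type sink leaves HCEF1 (1028) then stood above SBPASE (929 CPM per kb). The 3 wild-type bud libraries differed more than those of other tissues: replicate 1 was the highest for all 10 genes, at 128% of the group mean in the median gene.

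The quintuple mutant had less of all 10 transcripts in sink leaves, the young importing leaves. RBCS2B had 1037, 1427 and 1096 CPM in quintuple sink leaves, against 3611, 3774 and 4172 CPM in wild-type sink leaves. RBCS3B had 2262, 3602 and 3014 CPM, against 8583, 9282 and 8904 CPM in wild type. SBPASE, whose product regenerates the CO2 acceptor, had 675, 680 and 623 CPM, against 1600, 1631 and 1639 CPM. In each of these every quintuple library lay well below every wild-type library, and the same was true of the other 7 genes (25.3% of tested genes were lower without overlap). All 10 were called lower, where 12.9% of tested genes were lower, and the range of 9 to 10 held when any 1 library was left out. The log2 folds were -1.65 ± 0.16 for RBCS2B (adjusted p = 0.0038), -1.55 ± 0.18 for RBCS3B, -1.25 ± 0.12 for SBPASE, -1.24 ± 0.18 for RBCS1B and -1.01 ± 0.16 for RBCS1A (adjusted p = 0.0064). RCA stood at 11256, 11365 and 11055 CPM, against 24132, 25316 and 23127 CPM in wild type, a log2 fold of -1.06 ± 0.13. The smallest difference was that of GAPA, a subunit of the enzyme that reduces the first product of fixation, with 2815, 4004 and 3828 CPM, against 6489, 6561 and 5837 CPM in wild type (-0.78 ± 0.16, adjusted p = 0.015). GAPB, the other subunit, fell by 1.102 on the log2 scale, PRK by 0.91 and HCEF1 by 0.97. The median over the 10 was -1.08, and that over all tested genes 0.03. The quintuple libraries lay close to each other, at 43.2%, 47.6% and 43.0% of the wild-type mean in the median gene.

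Clock and cell division genes moved in the same libraries. TOC1, a clock gene, had 26.9, 84.9 and 125 CPM in quintuple sink leaves, against 17.8 to 21.5 CPM in wild type, and PRR9, another clock gene, had 27.1, 2.02 and 0.933 CPM in the quintuple libraries. Of 7 clock genes 2 were called higher and 1 lower (11.9% and 12.9% of tested genes were). Their summed level was 2053 to 2474 CPM, against 2266 to 2307 CPM in wild type. The summed level of 5 genes of dividing cells was 9.42 to 15.3 CPM, against 22.3 to 27.4 CPM, and 1 of the 5 was called lower. The 5 senescence markers summed to 145 to 304 CPM, against 136 to 318 CPM, with 1 of 4 tested called higher. The part of these genes in the result was not tested.

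**Figure D2:**
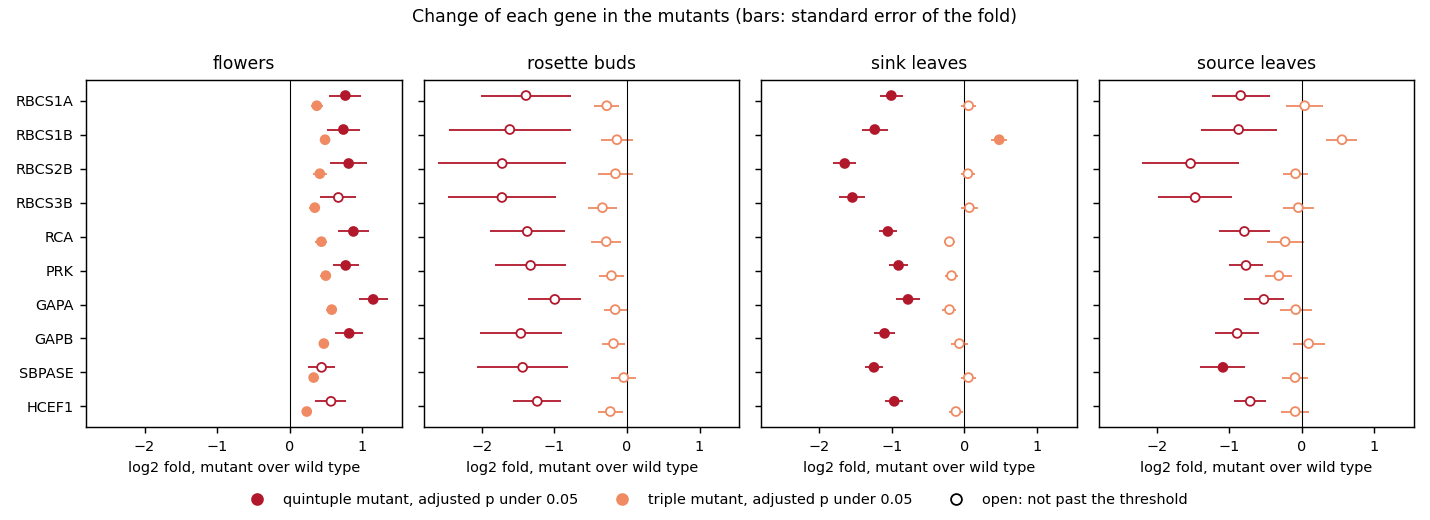
Log2 fold of each of the 10 genes in quintuple and triple libraries over wild type, by tissue; points are edgeR estimates with SE bars, and filled points have an adjusted p under 0.05. All 10 are filled and below 0 in quintuple sink leaves and filled and above 0 in triple flowers.

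In source leaves, the mature exporting leaves, the quintuple libraries were also lower but differed from each other. RBCS2B had 1610, 466 and 211 CPM, against 1995, 2472 and 2145 CPM in wild-type source leaves. RCA had 16222, 13347 and 9910 CPM, against 20795, 25403 and 21828 CPM. SBPASE had 976, 552 and 477 CPM, against 1268, 1635 and 1338 CPM. Replicate 1 was the highest quintuple library for 9 of the 10 genes and replicate 3 the lowest for all 10, and in the median gene the 3 libraries stood at 72.8%, 54.2% and 35.5% of the wild-type mean. For 9 genes no quintuple library reached the wild-type range (21.7% of tested genes were lower without overlap); RBCS1B was the exception, with 3448 CPM in quintuple replicate 1. SBPASE alone passed the test, with a log2 fold of -1.09 ± 0.31 (adjusted p = 0.049), where 8.85% of tested genes were called lower. RBCS2B (-1.54 ± 0.67, adjusted p = 0.14) and RBCS3B (-1.47 ± 0.51, adjusted p = 0.079) had larger estimates and larger errors. The median over the 10 was -0.86, against 0.02 over all tested genes. The count of 1 became 9 without quintuple replicate 1, when 20.5% of tested genes were called lower, and 0 without any other 1 library. With DESeq2 it was 8, where 14.1% of tested genes were called lower.

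The order of the source leaf libraries ran beside that of TOC1 and PRR9, named from 7 clock genes. These 2 also differed between the quintuple sink leaf libraries. There the 10 genes stood at 43.2%, 47.6% and 43.0% of the wild-type mean in the median gene. In source leaves TOC1 had 24.9, 55.2 and 86.0 CPM in quintuple replicates 1, 2 and 3, against 14.6 to 19.0 CPM in wild type. PRR9 had 22.7, 2.11 and 0.182 CPM in the same libraries, against 12.1 to 23.5 CPM. Of 7 clock genes 2 were called higher and 2 lower (9.19% and 8.85% of tested genes were). Their sum was 2053 to 2491 CPM, against 2297 to 2787 CPM. The 5 genes of dividing cells summed to 2.11 to 4.34 CPM, against 9.36 to 12.7 CPM, with 2 called lower. The 5 senescence markers summed to 464 to 1002 CPM, against 273 to 372 CPM, with 1 called higher. The part of these genes in the result was not tested.

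Rosette buds of the quintuple mutant showed the widest spread. RBCS1A had 3656, 1294 and 645 CPM in the quintuple buds, against 6261, 4707 and 4044 CPM in wild-type buds. RBCS2B had 252, 30.9 and 26.2 CPM, against 480, 308 and 248 CPM. PRK, the kinase that makes ribulose bisphosphate, had 321, 149 and 77.8 CPM, against 600, 425 and 385 CPM. Replicate 1 was the highest of the 3 for all 10 genes and replicate 3 the lowest for all 10, at 70.0%, 25.1% and 13.3% of the wild-type mean in the median gene. In 8 genes the quintuple buds lay wholly below wild type (18.8% of tested genes did), the exceptions being RBCS1B and RBCS2B. None of the 10 passed edgeR's test (0.568% of tested genes were called lower, 2.27% in either direction), 5 had an unadjusted p under 0.05, as had 6050 of 20417 tested genes, and DESeq2 called 5 lower, where it called 7.9% of tested genes lower. The log2 folds lay between -1.72 and -0.995, with SE between 0.33 and 0.88; HCEF1, a chloroplast fructose bisphosphatase, had the smallest adjusted p (-1.24 ± 0.33, adjusted p = 0.081). Without quintuple replicate 1 all 10 were called lower, as were 26.2% of tested genes, with RBCS2B at -3.54 (adjusted p = 0.0004) and GAPA at -1.36 (adjusted p = 0.0069).

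**Figure D3:**
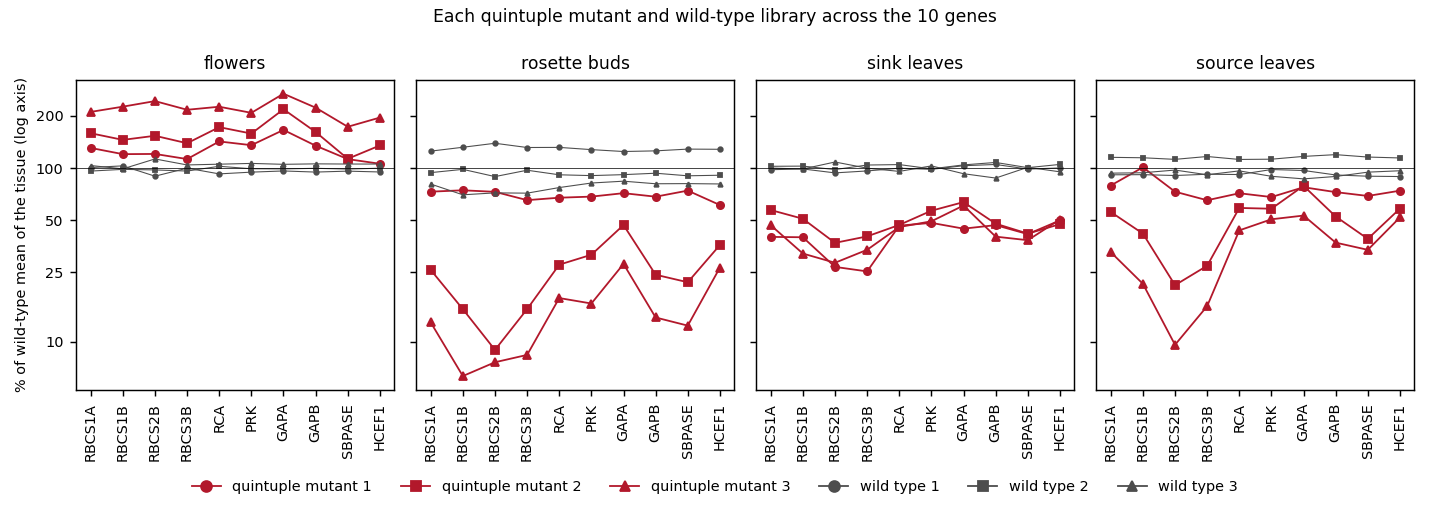
Level of each of the 10 genes in each quintuple and wild-type library as a percentage of the wild-type mean of its tissue (log axis); each line joins the 10 genes of 1 library, and markers tell the replicates apart. Quintuple sink leaf libraries lie close together, between 25.4% and 63.6%, whereas bud libraries stand at 70.0%, 25.1% and 13.3% in the median gene.

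Other marker genes differed among the same bud libraries. The 5 genes of dividing cells summed to between 45.9 and 195 CPM in quintuple buds, with the highest sum in replicate 1, against 160 to 184 CPM in wild type. STM, a meristem gene, had 45.9, 103 and 138 CPM, against 41.1 to 57.4 CPM, and TOC1 had 81.1, 133 and 181 CPM, against 77.8, 74.4 and 92.4 CPM. The 3 source leaf markers summed to 70.9 to 241 CPM, against 39.8 to 60.6 CPM. The 5 senescence markers summed to 159 to 255 CPM, against 50.5 to 96.8 CPM. Of each list 1 was called higher (1.7% of tested genes were). In this comparison 0 of 7 clock genes and 0 of 5 dividing cell genes were called by edgeR. Their part in the result was not tested.

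Flowers went the other way. In the quintuple mutant GAPA had 1251, 1646 and 2023 CPM, against 726, 746 and 793 CPM in wild-type flowers, a log2 fold of 1.15 ± 0.20 (adjusted p = 0.0044). RCA had 3243, 3921 and 5141 CPM, against 2109, 2332 and 2398 CPM (0.88 ± 0.21, adjusted p = 0.017). PRK had 533, 621 and 818 CPM, against 372, 390 and 418 CPM (0.77 ± 0.18, adjusted p = 0.014). For all 10 genes each quintuple library stood above each wild-type library (25.9% of tested genes were higher without overlap), replicate 1 being the lowest and replicate 3 the highest of the 3 in every gene. Called higher were 7 of the 10 (19.7% of tested genes were): RBCS1A, RBCS1B, RBCS2B, RCA, PRK, GAPA and GAPB. RBCS3B (0.67 ± 0.25, adjusted p = 0.069), HCEF1 (0.57 ± 0.21, adjusted p = 0.073) and SBPASE (0.44 ± 0.18, adjusted p = 0.097) did not pass. The median of the 10 was 0.77, against 0.01 over all tested genes. The count of 7 became 1 without any 1 wild-type flower library, 4 without quintuple replicate 2, and 4 with organelle genes removed before scaling.

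Triple flowers had more of all 10 transcripts as well. GAPA had 1112, 1171 and 1049 CPM in triple flowers, against 726, 746 and 793 CPM in wild-type flowers (log2 fold 0.58 ± 0.08, adjusted p = 0.00054). RBCS1B had 751, 822 and 789 CPM, against 587, 560 and 564 CPM (0.49 ± 0.07, adjusted p = 0.00092). SBPASE had 288, 293 and 293 CPM, against 226, 232 and 248 CPM (0.33 ± 0.07, adjusted p = 0.0062). All 10 genes were called higher, where 11% of tested genes were, and the count stayed between 8 and 10 when any 1 library was left out. The smallest estimate was that of HCEF1 (0.24 ± 0.07, adjusted p = 0.032), and the median of the 10 was 0.43, against 0.01 over all tested genes. When the spread was estimated from all 9 flower libraries, with the more variable quintuple ones among them, 0 of the 10 passed at an almost unchanged median of 0.43.

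Flower and senescence markers differed between the same libraries. VGD1, a pollen pectin methylesterase, had 666, 921 and 179 CPM in quintuple flowers, 1580, 1364 and 1483 CPM in triple flowers and 3701, 3529 and 3552 CPM in wild-type flowers. The 5 flower markers summed to 301 to 1128 CPM in quintuple and 1639 to 1886 CPM in triple flowers. In wild-type flowers the sum was 3785 to 3969 CPM, and VGD1 made up most of each sum. In the quintuple mutant 3 of 5 were called lower (18.8% of tested genes were). In the triple mutant 2 were called higher and 1 lower (11% and 15.6% of tested genes were). The petal and stamen gene AP3 had 42.2, 42.7 and 29.7 CPM in quintuple flowers, against 63.7 to 70.0 CPM in wild type. Senescence markers summed to 198 to 323 CPM in wild-type flowers. Quintuple flowers had 585 to 875 CPM, with 4 of 5 called higher (19.7% of tested genes were). Triple flowers had 80.3 to 130 CPM, with 4 of 5 called lower (15.6% of tested genes were). The quintuple library with the least VGD1, replicate 3, had the highest level of all 10 carbon fixation genes. Replicate 2 had the most VGD1, while replicate 1 had the lowest level of all 10. The part of these markers in the result was not tested.

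In sink leaves of the triple mutant 1 of the 10 genes, RBCS1B, was called higher, where 12.4% of tested genes were, and 0 lower. Without overlap 1 was higher and 4 were lower. RBCS1B had 5717, 7401 and 6689 CPM in triple sink leaves, against 4901, 5089 and 4898 CPM in wild type, so that the groups did not overlap (18.7% of tested genes were higher in this way). Its log2 fold was 0.48 ± 0.11 (adjusted p = 0.015). This call was lost without wild-type replicate 1 or triple replicate 3 (adjusted p = 0.053 in both), and with the spread taken from all 9 sink leaf libraries (adjusted p = 0.097). RCA, with 19665, 20475 and 19836 CPM, against 24132, 25316 and 23127 CPM in wild type, lay wholly below wild type, as did PRK, GAPA and HCEF1 (24.4% of tested genes did). RCA did not pass the test (-0.21 ± 0.08, adjusted p = 0.087). A further edgeR fit paired same-numbered libraries, a pairing that the labels do not give. In that fit RCA (-0.21, adjusted p = 0.024) and RBCS1B (0.47, adjusted p = 0.0055) passed. The median over the 10 was -0.01, against 0.02 over all tested genes.

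Source leaves of the triple mutant gave no call. RBCS1B had 5770, 5226 and 3855 CPM in triple libraries, against 3129, 3915 and 3208 CPM in wild type, and 1 triple library lay within the wild-type range. The log2 fold was 0.55 ± 0.21 (adjusted p = 0.11). None of the 10 passed edgeR's test (16.4% of tested genes did in either direction), 1 had an unadjusted p under 0.05, as had 6155 of 18795 tested genes, and DESeq2 called RBCS1B alone, where it called 19.4% of tested genes in either direction. PRK had 3053, 2294 and 2432 CPM, against 3210, 3681 and 2933 CPM, with overlap (-0.32 ± 0.19, adjusted p = 0.27).

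The make-up of the small subunit pool differed between mutant and wild-type leaves. RBCS1B took 15.3% of the counts of the 4 genes in each triple sink leaf library, against 12.1%, 11.9% and 11.6% in wild type. In triple source leaves it took 16.5%, 18.6% and 16.5%, against 12.5%, 12.4% and 12.5% in wild type. In triple flowers the shares were 9.96%, 10.3% and 10.5%, against 9.85%, 9.74% and 9.10%. In triple buds they were 8.33%, 9.60% and 9.61%, against 8.74%, 8.77% and 7.59%, with overlap (two-sided exact permutation p = 0.3). The triple and wild-type libraries did not overlap in the other 3 tissues. The same exact permutation test gave p = 0.1 each time, the smallest value that 3 against 3 libraries allow. In triple leaves RBCS1A averaged 55.3%, against 57.6%, in sink and 58.4%, against 60.6%, in source leaves, lower without overlap. RBCS3B was also lower without overlap, at 20.6%, against 21.3%, in sink and 17.2%, against 18.9%, in source leaves. Of the stretches of 75 bases in RBCS1B, 20.4% also lie in RBCS3B, which makes their division less certain. RBCS1A, on its own chromosome, took a larger share in quintuple leaves: 64.7%, 64.6% and 66.4% in sink leaves, against 58.0%, 57.6% and 57.3% in wild type, and 61.0%, 73.7% and 75.4% in source leaves, against 60.6% to 60.7%. Its share overlapped with wild type in quintuple flowers (mean 60.6%, against 59.3%, exact permutation p = 0.4) and buds (78.0%, against 71.2%, exact permutation p = 0.2). In sink leaves RBCS3B made up 15.1%, 16.9% and 17.7% in the quintuple mutant, against 21.1%, 21.7% and 21.2% in wild type. In quintuple source leaves RBCS2B made up 7.45%, 3.70% and 2.92%, against 7.95%, 7.83% and 8.37%, again without overlap. The leaf shares without overlap had an exact two-sided permutation p of 0.1.

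**Figure D4:**
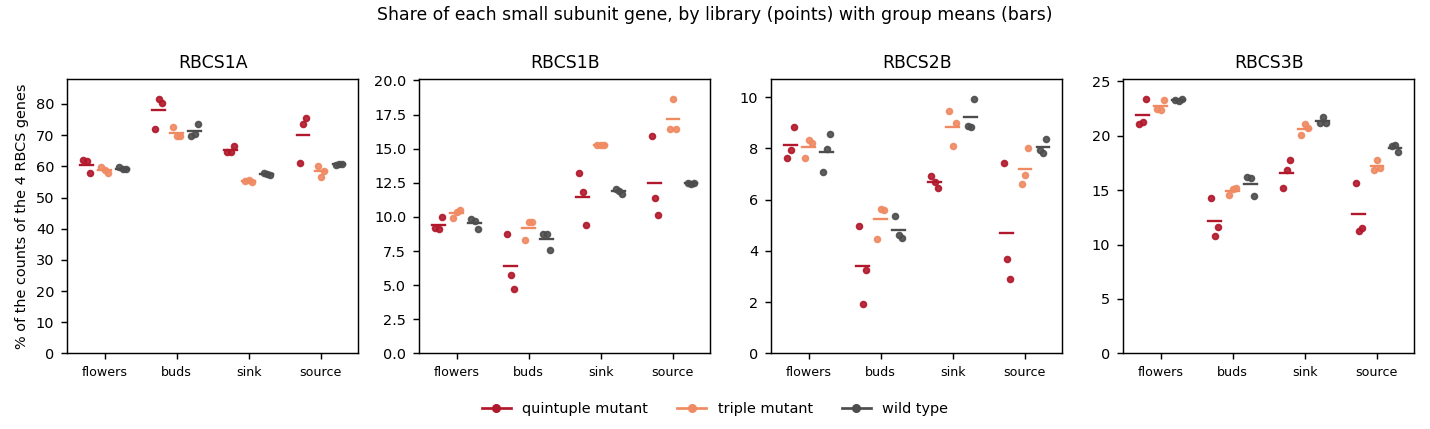
Share of each of the 4 small subunit genes in the summed RBCS counts (percent), by tissue and genotype; each point is 1 library and each bar a group mean. RBCS1B stands at 15.3% in the triple sink leaf libraries, against 11.6% to 12.1% in wild type, and RBCS1A at 64.6% to 66.4% in the quintuple sink leaf libraries.

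Ratios within a library gave 2 further contrasts. The summed small subunit level over that of RCA was 1.90, 2.37 and 2.21 in triple sink leaves, against 1.68, 1.69 and 1.82 in wild type, and 1.52, 1.62 and 1.39 in triple source leaves, against 1.21, 1.24 and 1.17. The ratio of GAPA to GAPB was 2.87, 5.30 and 5.58 in quintuple buds, against 2.72, 2.69 and 2.83 in wild-type buds, and 2.62, 2.87 and 2.56 in quintuple flowers, against 2.16, 2.11 and 2.11 in wild-type flowers. In quintuple source leaves it was 1.55, 2.18 and 2.08, against 1.54, 1.42 and 1.41 in wild type. None of these ratios overlapped between the groups, and each had an exact two-sided permutation p of 0.1. In quintuple sink leaves the ratio of GAPA to GAPB was 1.81, 2.52 and 2.86, against 1.86, 1.83 and 2.00, with overlap (exact permutation p = 0.4). In the triple mutant it averaged 1.72, against 1.90, in sink leaves and 1.29, against 1.45, in source leaves, lower than wild type without overlap, and 2.29, against 2.13, in flowers, higher without overlap (exact permutation p = 0.1 each). A ratio shows unequal change and not which gene moved.

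Buds of the triple mutant gave no call. RBCS1A had 3623, 4243 and 4463 CPM in triple buds, against 6261, 4707 and 4044 CPM in wild-type buds, and RCA 1395, 1882 and 2012 CPM, against 2837, 1972 and 1665 CPM. Both overlapped with wild type, whose replicate 1 was the highest. The log2 folds of the 10 lay between -0.34 and -0.05 with adjusted p between 0.28 and 0.88, and 0 of 10 passed with edgeR or DESeq2 (edgeR called 16.5% of tested genes; 0 of the 10 had an unadjusted p under 0.05, as had 6696 of 20010 tested genes). In the same libraries 6 of 7 clock genes were called lower (8.86% of tested genes were). Of 5 dividing cell genes 4 were called higher (7.62% of tested genes were). Their summed CPM was 236 to 301 in triple and 160 to 184 in wild-type buds.

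Whether the mutant effect differed between tissues was tested with the genotype by tissue terms. In the quintuple mutant 5 genes differed (23.2% of tested genes did): GAPA (adjusted p = 0.0025), HCEF1 (0.0050), PRK (0.012), RCA (0.015) and GAPB (0.019). For GAPA the log2 folds were 1.15 in flowers, -0.995 in buds, and -0.78 and -0.53 in sink and source leaves, each quintuple over wild type. The count of 5 became 10 without quintuple bud replicate 1, 9 without quintuple source replicate 1, 8 without quintuple bud replicate 3 and 3 without wild-type flower replicate 1. In the triple mutant PRK (adjusted p = 0.031) and GAPA (adjusted p = 0.049) differed between tissues, where 16.4% of tested genes did. That count became 0 without any 1 of the 6 flower libraries, and 1 without any 1 triple bud or triple sink leaf library, wild-type sink replicate 1 or 2, wild-type source replicate 1 or triple source replicate 2. RBCS1B did not differ between tissues in the triple mutant (adjusted p = 0.16), so its rise in flowers and sink leaves is not shown to differ from its values in the other tissues.

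Quintuple and triple libraries were set against each other in models of the 9 libraries of a tissue. In sink leaves all 10 genes were lower in quintuple than in triple libraries (20.7% of tested genes were), with log2 folds between -1.69 (RBCS1B) and -0.54 (GAPA), and 9 or 10 remained so without any 1 library. In source leaves all 10 genes were lower in every quintuple than in every triple library (23.5% of tested genes were lower without overlap). There 4 were called lower (18.3% of tested genes): RBCS1B (-1.44 ± 0.48, adjusted p = 0.041), RBCS3B (-1.44 ± 0.45, adjusted p = 0.035), GAPB (-1.002 ± 0.29, adjusted p = 0.028) and SBPASE (-1.01 ± 0.28, adjusted p = 0.024). Without quintuple replicate 1 the count was 8; it was 0 without quintuple replicate 2 or 3 or triple replicate 1 or 2, 1 without wild-type replicate 1 or 3, and 2 without wild-type replicate 2 or triple replicate 3. In buds HCEF1 was lower (-1.005 ± 0.30, adjusted p = 0.034; 15.7% of tested genes were lower), a count of 1 that became 10 without quintuple replicate 1 and 0 without quintuple replicate 2 or 3, any triple library or wild-type replicate 2. In flowers GAPA was higher (0.61 ± 0.16, adjusted p = 0.018, where 19.5% of tested genes were higher). This count was 7 without quintuple replicate 1 and 0 without triple replicate 1 or 3. The shares given here are those of the fits with all 9 libraries, and not of the fits without a library.

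Other genes of the pathway were read from lists chosen by function. Of 14 further Calvin cycle genes, 9 were called lower in quintuple sink leaves (12.9% of tested genes were), with a median log2 fold of -0.89 over the 14. PGK1, the chloroplast phosphoglycerate kinase, averaged 1074 CPM in quintuple and 2566 CPM in wild-type sink leaves (-1.21 ± 0.13), and the aldolase genes FBA1 (-1.23 ± 0.14) and FBA2 (-1.07) and GAPA-2, a second gene for the A subunit (-1.35 ± 0.15), fell as well. In source leaves of the quintuple mutant 3 of the 14 were called lower (8.85% of tested genes were). In its buds 0 were (0.568%), and the medians were -0.79 and -0.75. In quintuple flowers 6 were called higher and 1 lower (19.7% and 18.8% of tested genes were, median 0.34). In triple flowers 7 were called higher and 1 lower (11% and 15.6% of tested genes were, median 0.25). The one that fell in flowers was TKL2, a transketolase gene (AT2G45290), with log2 folds of -1.28 in quintuple and -0.61 in triple flowers. CP12-2, whose product binds PRK and the dehydrogenase, rose by 0.72 in quintuple and 0.37 in triple flowers, and CP12-3 by 2.01 in quintuple flowers.

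Genes that fold and assemble Rubisco or repair its sugar phosphates were called higher in triple leaves, where 1 or 0 of the 10 were. Of 11 such genes 6 were called higher and 0 lower in triple sink leaves (median 0.62) and the same numbers in triple source leaves (median 0.45), against 12.4% and 8.86% of all tested genes called higher, and the median of the 10 there was -0.01 and -0.09. Cpn60beta2, a subunit of the chloroplast chaperonin in which Rubisco folds, averaged 104 ± 18 CPM in triple and 22.3 ± 3.9 CPM in wild-type sink leaves (log2 fold 2.29 ± 0.18, adjusted p = 0.0011). CPN60B averaged 814 ± 86 CPM, against 272 ± 43 CPM (1.65 ± 0.14), and CPN60A 685 ± 59 CPM, against 241 ± 44 CPM (1.57 ± 0.15). In triple source leaves the same 3 had log2 folds of 1.56 ± 0.23, 1.14 ± 0.15 and 1.15 ± 0.16, and in triple buds of 0.44, 0.45 and 0.44, all called higher. The cochaperonin gene CPN20 rose in sink leaves by 0.97 ± 0.16 and in source leaves by 0.59. In quintuple sink leaves 7 of the 11 were called lower (12.9% of tested genes were) and 0 higher (median -0.57), among them RbcX2 (-1.002), a Rubisco assembly chaperone, and AT3G48420 (35.4 CPM in quintuple and 102 CPM in wild type, -1.47 ± 0.12). The counts were 7 higher in triple flowers (11% of tested genes), 3 higher in triple buds (7.62%), 1 higher in quintuple flowers (19.7%), 0 in quintuple buds and 2 lower in quintuple source leaves (8.85%).

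**Figure D5:**
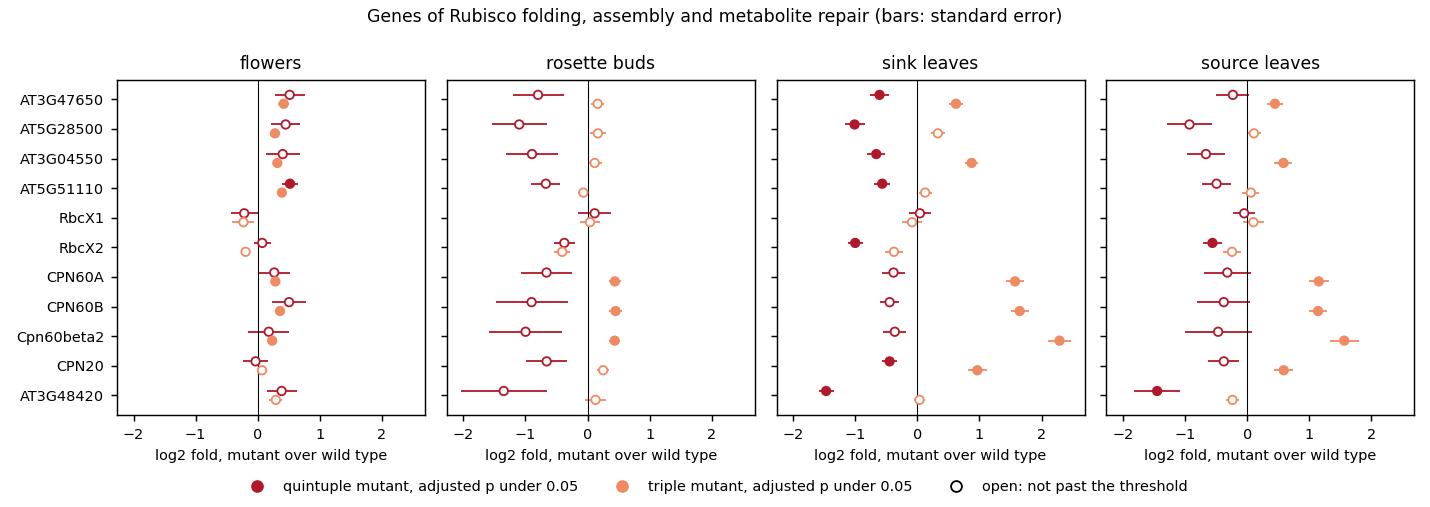
Log2 fold over wild type (edgeR, SE bars) of the 11 genes of Rubisco assembly and sugar phosphate repair in the quintuple and triple mutant, by tissue, with filled points for an adjusted p under 0.05. Cpn60beta2, CPN60B and CPN60A stand at 2.29, 1.65 and 1.57 in triple sink leaves.

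Photorespiration genes, whose products recover the carbon lost when Rubisco reacts with oxygen, were called in the same direction as the 10 in flowers and quintuple leaves. In triple flowers 12 of 12 were called higher (11% of tested genes were, median 0.37) and in quintuple flowers 7 of 12 (19.7% of tested genes, median 0.62); GGT1, a glutamate glyoxylate aminotransferase, had log2 folds of 0.71 ± 0.08 in triple and 1.54 ± 0.17 in quintuple flowers. In quintuple sink leaves 10 of 12 were called lower (12.9% of tested genes, median -1.0003), with SHM1, the mitochondrial serine hydroxymethyltransferase, at -1.29 ± 0.13. In quintuple source leaves 6 were called lower (8.85% of tested genes, median -0.75), HPR, hydroxypyruvate reductase, at -0.92. In triple leaves the calls were 1 lower in sink leaves (GGT1, -0.43) and 1 lower in source leaves (GLDP1, -0.60). Of all tested genes 12.1% and 7.51% were called lower there. In buds 0 were called in either mutant.

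The glycolytic counterparts of the cycle's enzymes work outside it. Of 9 such genes 2 were called lower in quintuple sink leaves (12.9% of tested genes were), TPI (-0.81) and FBP (-0.71), the cytosolic triose phosphate isomerase and fructose bisphosphatase, and 3 lower in quintuple flowers (18.8% of tested genes), led by GAPCP-1 (-0.89). Of 7 thioredoxin and regulator genes, TRXF1 (-1.05), TRXF2 (-0.98) and NTRC (-0.72) fell in quintuple sink leaves, where 12.9% of tested genes were called lower. TRXF1 and TRXF2 are thioredoxins that activate the cycle's enzymes in the light. The 7 genes together summed to 877 to 1004 CPM in quintuple sink leaves, against 1399 to 1504 CPM in wild-type sink leaves. GPRI1, the transcription factor gene also called GLK1, averaged 64.8 ± 31 CPM in quintuple flowers and 16.2 CPM in wild-type flowers (log2 fold 2.03 ± 0.30), with 0.67 in triple flowers and -0.31 in triple sink leaves, all called. Light harvesting genes were called lower in quintuple sink leaves in 7 of 7 (12.9% of tested genes, median -1.43, LHCA1 -1.73 ± 0.16). In quintuple source leaves 3 of 7 were called lower (8.85% of tested genes, LHCA1 -1.80). The chloroplast locus ATCG00490, read at low counts in these poly-A libraries, averaged 39.2 CPM in quintuple and 101 CPM in wild-type sink leaves (-1.31 ± 0.29) and was also called lower in triple sink leaves (63.2 CPM, -0.61 ± 0.16) and triple buds (9.70 CPM, against 19.6 CPM, -1.01 ± 0.28).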

How the data were processed

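RNA was measured by poly-A RNA sequencing in 36 Arabidopsis libraries (12 groups of 3), for which a stranded kit took 500 ng of RNA, per the labels' protocols. The authors deposited raw counts per locus in 8 tables, per the file headers, and each wild-type column stood identically in both tables of its tissue. The submitters' processing notes name R 3.5.1, DESeq2, edgeR, TAIR10, SAMtools 0.1.18 and Salmon 0.7.2 without a role. Use of the strand in counting, and whether reads were counted or estimated, are not given in the sources used here. Columns carry no tissue, which was read from their table. No replicate pair agreed within sampling noise (lowest chi-square per locus 5.83).

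From these counts edgeR 4.0.16 (R 4.3.3, limma 3.58.1) gave CPM, TMM-scaled over all 36 libraries, and quasi-likelihood tests after filterByExpr, with Benjamini-Hochberg adjustment over all tested genes and a threshold of 0.05. The SE of a log2 fold was derived as its absolute value divided by the square root of the quasi-likelihood F statistic. Mutant and wild type were compared in the 6 libraries of a table, the mutants in 9 and wild-type tissues in 12. Tissue differences were tested with genotype by tissue terms. Shares and ratios were compared with two-sided exact permutation tests. DESeq2 1.42.0, other size factors, no filter, organelle genes removed, a replicate block, shared spread and leaving out each library were alternatives. The tests were tried on simulated data first. Sequences came from RefSeq (TAIR10.1, MAFFT 7.526), whose build the tables do not state; summaries used matplotlib 3.10.9, scipy 1.17.1, pandas 2.3.3 and numpy 2.4.6 under Python 3.11.15.

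The 10 genes and the other lists were chosen with earlier results of these data known. Named were all 10, their small subunit sum, the S1 bZIP genes and ATCG00490 as checks, up to 4 called genes of each list with the smallest p, and the 5 genes most alike; markers were named from their lists. Replicates are labelled biological and nothing more is known of them, so p-values measure the spread between these samples. All 3 correlations of the deviations of same-numbered libraries were over 0.1, the level set for pairing, for triple against wild-type sink leaves (0.225, 0.102 and 0.213) and for no other pair of groups.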

Additional observations from a re-analysis of the deposited data

Results flagged for a closer look

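In 7 cases the effect of a mutant on a gene differed between the 4 tissues by the test of the genotype by tissue terms (edgeR, adjusted over all tested genes). In the quintuple mutant these were GAPA (adjusted p = 0.0025), HCEF1 (0.0050), PRK (0.012), RCA (0.015) and GAPB (0.019), 5 of 10 where 23.2% of all tested genes passed. All 10 genes, passing or not, had positive log2 folds over wild type in flowers and negative ones in buds, sink leaves and source leaves. In the triple mutant they were PRK (adjusted p = 0.031) and GAPA (adjusted p = 0.049), 2 of 10 where 16.4% of all tested genes passed, both with a positive fold in flowers and negative folds in the other 3 tissues. RCA and HCEF1, which did not pass, also had triple means above wild type in flowers and below it in the other tissues. The triple result lost PRK and GAPA without any 1 flower library. No cause was tested.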

How the results depend on the processing

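Of the recomputed counts of called genes among the 10, other than those that left out a library, 89 lay within 1.5 times the count reported and 23 did not; no log2 fold changed sign in them. DESeq2 called 1 gene in triple source leaves (against 0), 5 in quintuple buds (0), 8 in quintuple source leaves (1), and, for quintuple over triple, 3 in flowers (1), 7 in buds (1) and 9 in source leaves (4). It called 5 for wild-type sink over source leaves (3) and 9 for tissue differences of the quintuple mutant (5). With the spread taken from 9 libraries of a tissue, the counts were 0 in triple flowers (10), 0 in triple sink leaves (1), 1 in quintuple buds (0) and 5 in quintuple source leaves (1). From the 6 mutant libraries alone, 0 were called for quintuple over triple in flowers, buds and source leaves. Other size factors gave 1 for wild-type flowers over buds (2), no filter 1 for tissue differences of the triple mutant (2), and removing organelle genes 4 in quintuple flowers (7). These counts are not set beside the share of all tested genes called in the same fit. They therefore do not tell a change in the 10 genes from a general change in calls. The cause was not tested.

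A replicate block gave 2 calls (1) for triple against wild-type sink leaves, the only pair of groups past the level set for pairing. The lowest of its correlations was 0.102, against a level of 0.1. That level was applied to these same data, and the labels give no pairing. Elsewhere libraries share a number alone: the block gave 0 in quintuple source leaves (1), 5 for quintuple over triple buds (1), 1 for wild-type flowers over buds (2) and 1 for tissue differences of the triple mutant (2), and it kept all other counts within 1.5 times. Not every library correlated best with its own number outside the triple sink leaves, apart from quintuple against triple source leaves.

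Leaving out 1 library gave counts of 0 to 1 in triple sink leaves, 1 to 8 in quintuple flowers, 0 to 10 in quintuple buds, 0 to 9 in quintuple source leaves, and 0 to 7, 0 to 10 and 0 to 8 for quintuple over triple flowers, buds and source leaves. The ranges were 1 to 3 for wild-type flowers over buds, 1 to 5 for wild-type sink over source leaves, and 0 to 3 and 3 to 10 for tissue differences of the triple and quintuple mutant. Where a library left a group with 2, its spread was shared with the other group. These counts, too, stand here without the share of all tested genes called in the same fit. It also turned the sign of 20 uncalled log2 folds. In triple buds these spanned -0.33 to 0.11 for RBCS1B, -0.34 to 0.15 for RBCS2B, -0.26 to 0.022 for GAPA, -0.31 to 0.0074 for GAPB and -0.16 to 0.17 for SBPASE. In triple sink leaves they spanned -0.045 to 0.16 for RBCS1A, -0.016 to 0.11 for RBCS2B and -0.047 to 0.18 for RBCS3B. In triple source leaves they spanned -0.15 to 0.17 for RBCS1A, -0.19 to 0.084 for RBCS3B, -0.27 to 0.031 for GAPA, -0.11 to 0.23 for GAPB, -0.23 to 0.014 for SBPASE and -0.29 to 0.024 for HCEF1. In quintuple over triple flowers SBPASE spanned -0.064 to 0.24. In wild-type flowers over buds the ranges were -0.24 to 0.21 for RBCS1B, -0.051 to 0.35 for RCA, -0.18 to 0.18 for SBPASE and -0.27 to 0.081 for HCEF1, and in wild-type sink over source leaves -0.052 to 0.093 for PRK. The lowest level of any of the 10 genes in a library was 26.2 CPM (RBCS2B, quintuple bud replicate 3).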

Other observations

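Over the 12 group means, on the scale log2(CPM + 0.5), the genes whose profile was most like the mean profile of the 10 were sought among 23016 genes. The nearest were AT5G36790, GDCH, PGLP1, PnsB2 and AT1G27480, each with a Pearson correlation of 0.997 across the groups. GDCH encodes the H protein of glycine decarboxylase and PGLP1 phosphoglycolate phosphatase, both of photorespiration, and PnsB2 a subunit of the chloroplast NDH complex. The 10 genes themselves correlated with their mean profile by 0.967 (RBCS3B) to 0.996 (SBPASE), so these 5 lay closer to it than any of the 10. The 12 points share libraries among genes and are dominated by the leaf against flower and bud difference, and the correlation is given as a description.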
